A study of Mus musculus with 15 samples.

Results

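The clustered histone genes are the genes that encode the H1, H2A, H2B, H3 and H4 proteins from the Hist1 to Hist4 loci. They were chosen by symbol alone, as every gene whose GENCODE vM21 symbol starts with Hist1h, Hist2h, Hist3h or Hist4h. Of 70 such genes, 68 had a row among the 45706 genes of the count table, and Hist1h2bm and Hist1h2bh were not analysed here. The 68 genes comprise 6 of class H1, 20 of H2A, 17 of H2B, 12 of H3 and 13 of H4. By locus, 54 lie in Hist1 on chromosome 13, 10 in Hist2 on chromosome 3, 3 in Hist3 on chromosome 11 and 1 in Hist4 on chromosome 6. The annotation calls 65 of them protein-coding and 3 pseudogenes.

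RNA came from lineage-marker-negative cells, that is progenitors left after magnetic removal of mature blood cells, from the bone marrow of secondary transplant recipients. Donor LSK cells, a fraction of marrow that holds the stem cells, were WT, Puma-/-, G3 mTerc-/-Puma+/+ or G3 mTerc-/-Puma-/-. The deletions are germline knockouts on a C57BL/6J background, mTerc encodes the telomerase RNA, Puma the apoptosis activator PUMA, and G3 counts the generations bred without telomerase. All donor cells had been serially transplanted into lethally irradiated CD45.1 hosts, so the controls share that history, and cells of the host can remain in the marrow. The 15 libraries comprise 3 from WT and 4 from each other genotype. Whether each library came from a separate animal is not stated in the labels, so p-values measure the spread between these samples.

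Messenger RNAs of these genes are an exception among animal transcripts. During S phase they end in a short conserved stem-loop, bound by the protein SLBP, and carry no poly(A) tail. Some members can also end at a downstream polyadenylation site, mainly in cells that have left the cycle or are differentiating. In libraries made after poly(A) selection, the counts therefore concern whatever part of these transcripts was retained, and they are not a measure of total histone mRNA.

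The ends of the annotated transcripts were searched for both signals, and the sequences are shown because the stem of H4 genes differs from that of the other classes and because the genes described later carry them. The stem-loop was taken as 6 paired bases that open with GG and close with CC around a loop of 4 bases that starts with TT, within 150 bases after the stop codon and on the transcript strand. Of 50 members with a transcript long enough to search, 42 held it, against 12 of 21018 other coding genes (0.0571%). It took 6 forms among the members, of which the commonest stood in 24. In the lines below the paired stem is in capitals and the loop in lower case, written as DNA from 5′ to 3′ on GRCm38.
Hist1h1c, chr13:23739512-23739527, plus strand: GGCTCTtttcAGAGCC
Hist1h1t, chr13:23696525-23696540, plus strand: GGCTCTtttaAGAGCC
Hist2h2ac, chr3:96220418-96220433, minus strand: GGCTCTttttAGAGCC
Hist1h4i, chr13:22040966-22040981, minus strand: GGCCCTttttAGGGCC
Hist1h4m, chr13:21812129-21812144, plus strand: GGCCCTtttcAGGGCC
Hist1h4n, chr13:21831798-21831813, minus strand: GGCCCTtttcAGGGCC
Hist1h4j, chr13:21735437-21735452, plus strand: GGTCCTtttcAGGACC
The stem of the first 3 lines belonged to classes H1, H2A, H2B and H3, and the other stems were found in H4 members only. The form of Hist1h4m stood in 7 H4 genes, that of Hist1h4i in 2 and that of Hist1h4j in 2. Distances from the stop codon to the stem ran from 21 to 58 bases with a median of 31.5.

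The gene models differed in where they ended. In RefSeq on GRCm38.p6, where all 68 members matched by symbol or older symbol and position, 39 of the 42 genes with a stem-loop ended within 10 bases past it. In GENCODE vM21, 2 of the same 42 did so. A polyadenylation hexamer, AATAAA or ATTAAA in the last 40 bases of the transcript, was found in 17 of 49 members searched, against 79.7% of 20839 other coding genes. Both signals were present in 13 members. The hexamer is in capitals in the sites of the following genes, which are shown because 3 of them were among the most abundant members and the last is the 1 gene called between genotypes.
Hist1h1c, chr13:23740334-23740357, plus strand: atgcttctAATAAAaagcgtttag
Hist1h4i, chr13:22040641-22040664, minus strand: ctgtttacATTAAAagtattctat
Hist2h2be, chr3:96223709-96223732, plus strand: ttattattAATAAAgttaccgatt
Hist1h1t, chr13:23696691-23696714, plus strand: tacgccagAATAAAggtcaccatt
The annotated transcript of Hist1h2bc, another abundant member, held neither signal in the windows searched.

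The promoters, taken from RefSeq as 250 bases before to 50 bases after the start, were available for 60 members. The letters CCAAT, searched on both strands, were present in all 6 H1, 18 H2A, 14 H2B and 10 H3 genes with a promoter sequence, and in 3 of 12 H4 genes, against 41.1% of the promoters of 27025 genes. The letters TATAAA were present in 35 of the 60 (58.3%), against 15.7%. The letters ATTTGCA, most of the octamer motif known from H2B promoters, were present in 6 of 14 H2B and 7 of 18 H2A genes and in 0 of the other classes, against 4.56%. Neighbouring H2A and H2B genes can share one divergent promoter, so these members are not independent, and the matches are a description of the letters alone.

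The libraries held 102790519 to 158367059 counts, with mitochondrial genes at 4.96% to 9.92% of them. The study's heatmaps leave out replicate 2 among the G3 mTerc-/-Puma-/- libraries. It was left out of the tests here too, and its levels are given beside the others. It stood apart in its erythroid markers, whose summed level was 2229 normalized CPM against 218.8 to 494.3 in the other libraries. Its monocyte and macrophage markers summed to 351.5 against 783.6 to 1100, and its progenitor markers to 979.6 against 1085 to 1412. Its neutrophil (31040) and T and NK markers (774.0) lay above all other libraries, and its pre-B and megakaryocyte markers within their range. CPM are counts scaled to a library of 1000000 counts, here after TMM normalization. The progenitor markers Kit and Spi1 lay at 113.7 to 164.4 and 231.3 to 326.4 normalized CPM over the 14 libraries, so these markers were present in every one. The progenitor genes listed summed to 1085 to 1412 normalized CPM over the same libraries. Those listed for neutrophils summed to 12810 to 27050, so genes listed for other cells were present as well. The targeted genes did not match every label. Bbc3, which encodes PUMA, lay at 5.02 to 6.80 normalized CPM in Puma-/-, but at 13.5 to 17.0 where the label is G3 mTerc-/-Puma-/-, within the ranges of WT (9.67 to 23.5) and G3 mTerc-/-Puma+/+ (11.7 to 20.7). These libraries are therefore called by their label, or labelled double mutants, throughout. Terc had 7 to 17 counts in WT and at most 1 count in any mTerc-/- library. The level of Xist, which is made from the inactive X chromosome, was 463.7 to 864.9 normalized CPM for Puma-/- and 0.176 to 88.6 for G3 mTerc-/-Puma+/+. It was mixed within the other genotypes, at 1.72 to 416.5 for WT and 0.386 to 659.5 for the labelled double mutants.

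The clustered histone genes took 0.00985% to 0.0204% of the counts of a library, 10749 to 24580 counts in all. Their summed level was 146.7, 132.0 and 215.9 normalized CPM in WT and 114.5, 110.9, 160.0 and 136.3 in Puma-/-. It was 110.7, 212.5, 138.8 and 162.0 in G3 mTerc-/-Puma+/+. Among the labelled double mutants it was 154.0, 159.8 and 156.9 in replicates 1, 3 and 4 and 92.5 in replicate 2. The highest library of WT lay 1.64-fold above the lowest, and in G3 mTerc-/-Puma+/+ this ratio was 1.92. The means of 165 ± 44.8 (SD, n = 3), 130 ± 22.7 (n = 4), 156 ± 43.1 (n = 4) and 157 ± 2.90 (n = 3), in the same order of genotypes, differed by less than the spread within WT. In bulk RNA, a smaller share of cells with these transcripts cannot be told apart from less of them per cell.

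**Figure D1:**
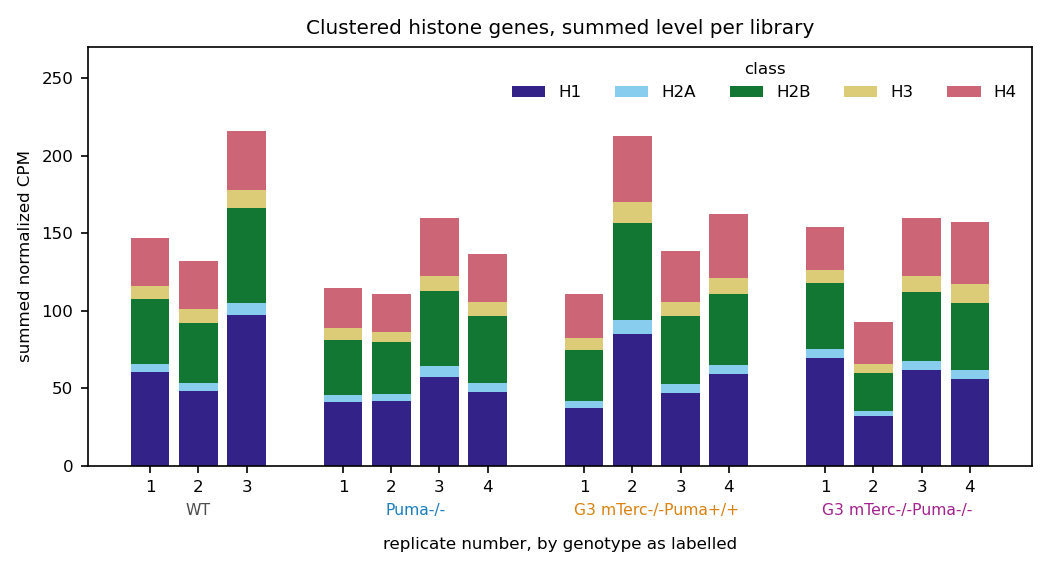
Summed normalized CPM of the 68 clustered histone genes in each of the 15 libraries (vertical axis, from 0), stacked by histone class, with the libraries grouped by labelled genotype and numbered by replicate. WT replicate 3 and G3 mTerc-/-Puma+/+ replicate 2 are the highest bars at 215.9 and 212.5, and the lowest bar, at 92.5, is the labelled double mutant replicate 2.

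A few genes carried most of this sum. Hist1h1c, a linker histone of class H1, held 31.6% of it over the 14 libraries, and with the core histone genes Hist1h4i, Hist1h2bc and Hist2h2be it held 62.1%. At the other end, 16 members had a mean under 0.1 normalized CPM. The 6 genes with 0 counts in every library were Hist1h2aa, Hist2h2aa1, Hist2h2aa2, Hist2h2bb, Hist2h3b and Hist2h3c1, all but the first named after their values were seen. A count of 0 allows up to 3 counts, or 0.0292 CPM in the shallowest library, and this covers counting error of assigned reads only. All 6 overlap another annotated gene, Hist2h3c1 over all of its 1825 exonic bases. Hist2h2aa2 and Hist2h3c1 share 100% of their 50-base words with another gene. For the Hist2 genes among the 6, a count of 0 therefore sets no limit on expression. In Hist1h2aa the overlap is 129 of 390 exonic bases and 2.35% of the words are shared, so this concerns part of that gene only. Hist1h2aa and Hist1h2ba are histones of the testis, and Hist1h2ba had 1 count in all 15 libraries together.

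Per kilobase of exon, the level of Hist1h1c was 30.5 normalized CPM per kb, with 19.7 in the lowest and 52.9 in the highest of the 14 libraries. That of Hist1h4i was 29.1 and ran from 20.7 to 39.2, so that these neighbours in the order did not differ beyond their spread. Hist1h2bc followed at 13.8 CPM per kb, with a range of 9.47 to 24.0, and Hist2h2be, the fourth by CPM, stood at 3.38 with a range of 2.66 to 4.16. These genes were picked by CPM, and 5 other members lay between the last pair per kb, of which Hist1h2bg, named after its value was seen, had the highest level at 11.8. The next most abundant H1 gene by CPM, Hist1h1e, had 1.45 CPM per kb, and the H3 genes Hist1h3c and Hist1h3d had 3.07 and 1.14. Hist1h4c, second among the H4 genes by CPM, had 2.53 CPM per kb, and the 2 highest H2A genes by CPM, Hist3h2a and Hist1h2ac, had 1.06 and 0.269. Exon lengths here are those of GENCODE vM21. Of these, 1643 of 2146 bases in Hist3h2a, 2010 of 2482 in Hist1h2ac and 840 of 1560 in Hist1h1c lie past the stem-loop. Levels per kb and their order can therefore change with the gene model. The median over all 68 members was 0.716 CPM per kb.

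The replacement histones, which are encoded outside the clusters and most of them by ordinary polyadenylated mRNAs, reached higher levels, though not each of them. Of these, named after their levels were seen, H2afz, the gene of H2A.Z, had 300.7 normalized CPM per kb, and H3f3b, a gene of H3.3, had 300.8. Of the 11 replacement histone genes listed, H2afy2 and H1fx had the lowest levels, with 1.79 and 4.16 CPM per kb. H1f0, a replacement linker histone, had 24.5, below the levels of Hist1h1c and Hist1h4i.

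**Figure D2:**
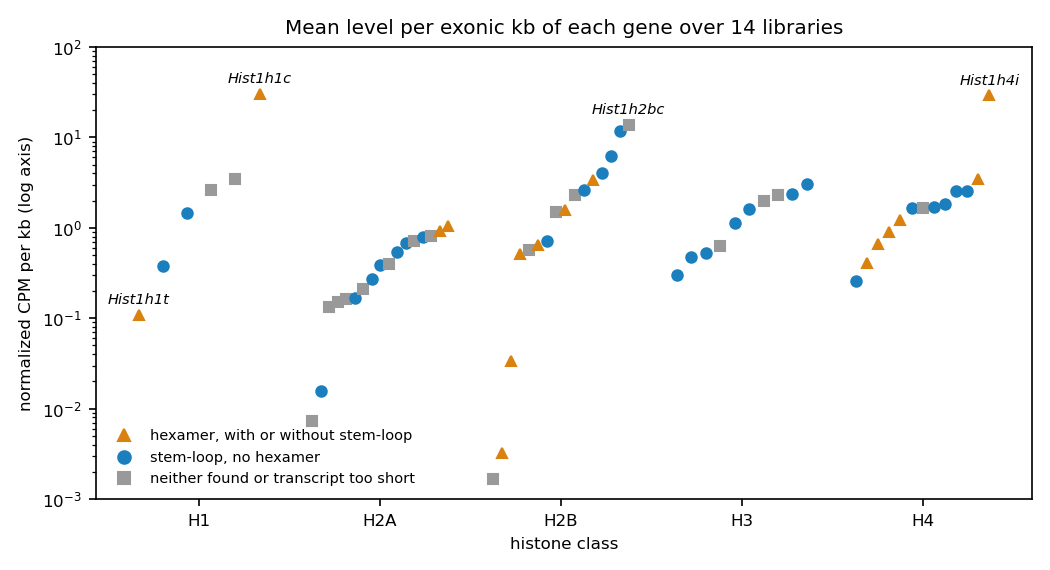
Mean normalized CPM per exonic kb over 14 libraries (vertical log axis) of each clustered histone gene with at least 1 count in those libraries, by class, with symbols for a polyadenylation hexamer, for a stem-loop without a hexamer, and for neither found or a transcript too short to search. By GENCODE vM21 exon lengths, Hist1h1c, Hist1h4i and Hist1h2bc stand at 30.5, 29.1 and 13.8, while the class H2A reaches 1.06 at most.

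The levels of members with and without a hexamer overlapped. The 13 members with a stem-loop and a hexamer had a median of 0.901 CPM per kb and a range of 0 to 30.5. The 29 members with a stem-loop and no hexamer had a median of 0.797 and a range of 0 to 11.8. Together the 17 members with a hexamer held 59.4% of the summed level, most of it on Hist1h1c and Hist1h4i.

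Class H2A had the lowest median level per GENCODE exon length. Its 20 members held 3.93% of the summed CPM, with a median of 0.239 CPM per kb, while medians in the other classes were 2.03 for H1, 1.51 for H2B, 0.887 for H3 and 1.67 for H4. In the annotation, 26 of the 68 members overlap another gene, and 19 of the 20 H2A members, and 0 members of the other classes, lie across a predicted miRNA gene of the opposite strand. The 18 of these predicted genes with a row in the table are 129 to 144 bases long, cover 5.56% to 35.9% of the exonic bases of their H2A partner, and had 100 counts in all libraries together. The strand setting of the counting is not given in the sources used here, and whether reads in these stretches were lost from the H2A counts was not tested.

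Many members are also near copies of each other. More than 50% of the 50-base words of the transcript were shared with another gene for 34 of the 68, and more than 90% for 9, whose highest level was 0.717 CPM per kb. STAR's gene counts use reads placed at 1 position only, so the level of such a member is uncertain. Among the 9, 2 had 0 counts in every library.

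The members moved together from library to library within a genotype. The filter on low counts left 56 of the 68 members for testing. Of these, 48 lay above their genotype's mean log2 level in WT replicate 3 and 51 in G3 mTerc-/-Puma+/+ replicate 2, with median deviations of 0.33 and 0.46 on the log2 scale. In Puma-/- replicate 3 it was 55 of 56, with a median of 0.33. The opposite held in Puma-/- replicate 2 with 4 above and a median of -0.29, and in G3 mTerc-/-Puma+/+ replicate 1 with 5 above and a median of -0.39. Over all genes tested, 46.7% to 53.1% lay above the mean in any library of the 14, with medians between -0.018 and 0.015.

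**Figure D3:**
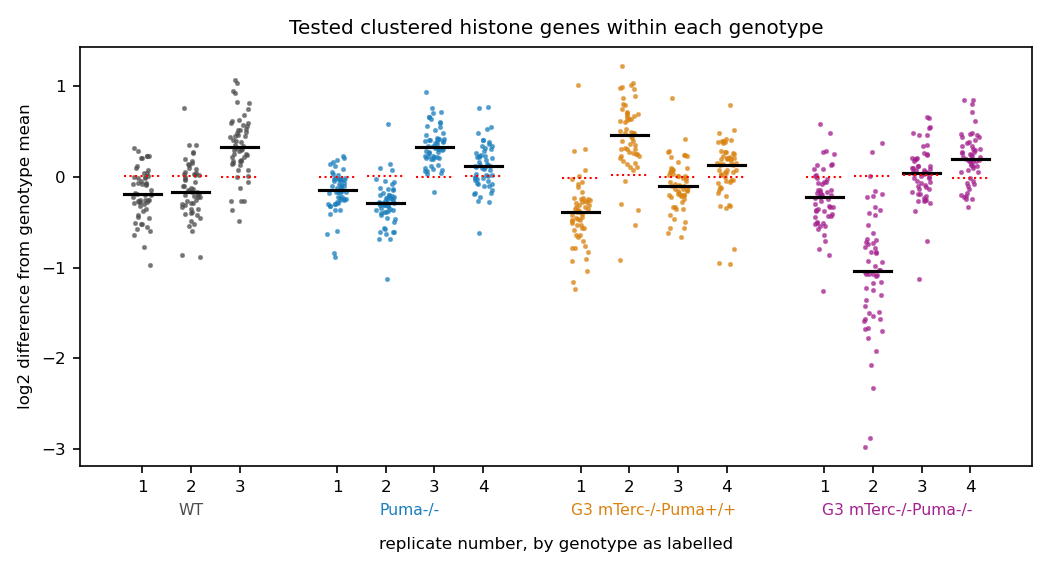
Difference of the log2 normalized CPM of each of the 56 tested clustered histone genes from the mean of its genotype (vertical axis), per library, with the black bar at their median and the red dotted line at the median of all tested genes. Labelled double mutant replicate 2, which is set against the mean of the other 3, has the lowest median at -1.04.

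Other RNAs differed between these same libraries. Genes of transcripts without a poly(A) tail, among them Rpph1, the RNA of RNase P, were summed. They reached 8.36 normalized CPM in G3 mTerc-/-Puma+/+ replicate 2 and 2.63 in replicate 1, against 2.77 to 6.08 in the other 12 tested libraries. Rpph1 alone made up 6.40 of the 8.36. In WT replicate 3 the sum was 4.233, against 3.54 and 4.125 in the other WT libraries. In Puma-/- replicates 3 and 2 it was 4.941 and 2.773, against 3.263 and 3.852 in replicates 1 and 4. The 30 S phase genes summed to 6141 and 5651 CPM in replicates 2 and 1 of G3 mTerc-/-Puma+/+, with 5296 and 5515 in replicates 3 and 4. In WT replicate 3 they summed to 6066, against 5195 and 5465 in the other WT libraries. In Puma-/- replicates 3 and 2 they summed to 5340 and 4815, against 5070 and 4888 in replicates 1 and 4. The replacement histones, most of them with polyadenylated mRNAs, summed to 4274 CPM in G3 mTerc-/-Puma+/+ replicate 2 and 4293 in WT replicate 3, against 3042 to 3855 in the other 12. In Puma-/- replicates 3 and 2 they summed to 3583 and 3153, against 3043 and 3042 in replicates 1 and 4. The part of these RNAs in the spread of the clustered histone genes was not tested.

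Puma-/- was compared with WT first, groups that differ by label in Puma alone. Xist did not overlap between them (1.72 to 416.5 normalized CPM in WT, 463.7 to 864.9 in Puma-/-). Label and Xist level therefore cannot be told apart in this comparison. None of the 56 members passed an adjusted p of 0.05 in edgeR's quasi-likelihood test, beside 0.079% of the 18983 genes tested. An unadjusted p under 0.05 was found for 3 members (5.36%), beside 10.1% of all genes. Of the 56, 42 had a log2 fold change below 0, with a median of -0.15 (all genes, 0.0048), while 50.9% of all genes lay above 0. Without WT replicate 3 this median was 0.029, so its direction rested on that library. Without 1 other library it reached -0.34 at the lowest (without Puma-/- replicate 3), and with the log2 CPM of Xist as a covariate it was -0.0026. Hist1h1c was 52.4, 39.5 and 82.5 normalized CPM in WT and 33.2, 35.6, 45.4 and 37.7 in Puma-/-. The groups overlapped, with a log2 fold change of -0.61 (SE 0.268, edgeR adjusted p = 0.465). Hist1h3b, a gene of H3, had 0.226, 0.371 and 0.503 CPM in WT and 0.159 to 0.259 in Puma-/- (log2 fold change -0.84, SE 0.312, edgeR adjusted p = 0.423). Hist1h2af was higher in each Puma-/- library, at 0.0753 to 0.118 CPM, than in WT, at 0.0098 to 0.0556 (1.42, SE 0.661, edgeR adjusted p = 0.492), at levels of 1 to 13 counts.

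Between G3 mTerc-/-Puma+/+ and WT, which concerns loss of telomerase, 0 members passed, beside 0.0369% of all genes. Unadjusted, 4 members (7.14%) had a p under 0.05, beside 3.86%. Here 34 of 56 members lay above 0, beside 54.5% of all genes, with a median of 0.074 (all genes, 0.018). The median was -0.15 without G3 mTerc-/-Puma+/+ replicate 2, 0.27 without WT replicate 3, and -0.044 and -0.032 without WT replicates 1 and 2. With the Xist covariate it was -0.051. Hist1h4k had 0.326 to 0.445 CPM in WT and 0.454 to 0.700 in G3 mTerc-/-Puma+/+, without overlap (log2 fold change 0.60, SE 0.227, edgeR adjusted p = 0.998). The libraries labelled G3 mTerc-/-Puma-/- against WT gave 0 members called, beside 0.0632%, and 4 (7.14%) at an unadjusted p under 0.05, beside 5.45%. Of the 56 members, 34 lay above 0, beside 50% of all genes, with a median of 0.076. That median was below 0 with all 15 libraries (-0.13) and without 1 of WT replicate 1, WT replicate 2 or replicate 4 of the labelled libraries (-0.026, -0.0026 and -0.051), and it was 0.22 without WT replicate 3.

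Against Puma-/-, more of the members leaned upward. In G3 mTerc-/-Puma+/+, 43 of 56 lay above 0, beside 49.9% of all genes, with a median log2 fold change of 0.23. Of the 56, 0 were called beside 0.801% of all genes, and 4 (7.14%) had an unadjusted p under 0.05 beside 17.1%. In the libraries labelled G3 mTerc-/-Puma-/-, 45 of 56 lay above 0, beside 52% of all genes, with a median of 0.24. Of the 56, 0 were called beside 0.306%, and 3 (5.36%) had an unadjusted p under 0.05 beside 8.42%. Both comparisons use the same Puma-/- libraries, so the 2 medians are not separate evidence. With the Xist covariate, the first median was -0.038 and the second 0.094. Xist did not overlap between the groups of the first comparison, so label and Xist level cannot be told apart in it. Without 1 library the first ran from 0.089 (G3 mTerc-/-Puma+/+ replicate 2) to 0.41 (replicate 1 of that genotype) and the second from 0.13 to 0.32. The second was 0.037 with all 15 libraries. Hist1h4i was 15.2, 15.1, 22.9 and 19.1 CPM in Puma-/- and 18.0, 28.5, 21.5 and 25.3 in G3 mTerc-/-Puma+/+, which overlap (log2 fold change 0.37, SE 0.163, edgeR adjusted p = 0.269).

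**Figure D4:**
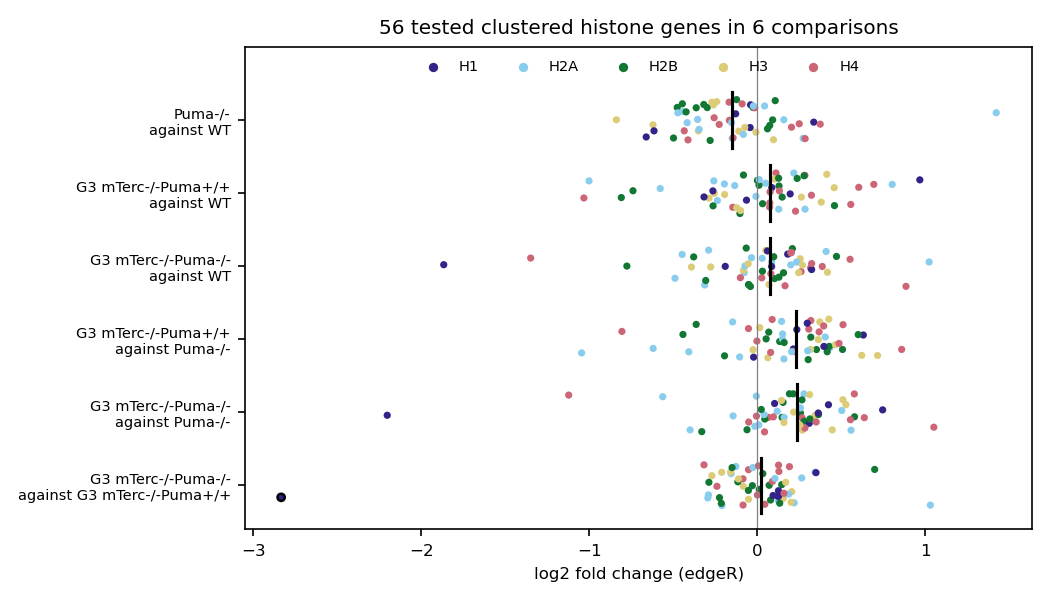
Log2 fold change from edgeR (horizontal axis) of the 56 tested clustered histone genes in each of 6 comparisons, coloured by class, with a vertical bar at the median and a black outline where the adjusted p is under 0.05. The outlined point is Hist1h1t at -2.83, and medians lie between -0.15 and 0.24.

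The labelled double mutants were then set against G3 mTerc-/-Puma+/+, groups that differ in Puma by label and overlap in the level of Bbc3. In this comparison 1 member was called, Hist1h1t, beside 0.0738% of all genes, and it was the only member with an unadjusted p under 0.05 (1.79% of the 56, beside 6.22%). The other 55 had log2 fold changes on both sides of 0, and the median over the 56 was 0.023, or between -0.14 (all 15 libraries) and 0.17 (without G3 mTerc-/-Puma+/+ replicate 2) over the alternatives. The interaction of mTerc and Puma, formed from the 4 labels as the difference of the labelled double mutants from Puma-/- minus that of G3 mTerc-/-Puma+/+ from WT, gave 0 members called, beside 0.0527%. Hist1h1t was again the only one at an unadjusted p under 0.05 (1.79%, beside 4.93%).

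Hist1h1t encodes the testis-specific linker histone H1t, and it lies on chromosome 13 from 23695814 to 23696725 as a single exon. Its stem-loop and hexamer are printed above, and it shares 0 of its 50-base words with another gene. Its counts were 10, 10 and 7 in WT, 6, 10, 13 and 19 in Puma-/-, and 27, 11, 19 and 21 in G3 mTerc-/-Puma+/+. They were 4, 2, 2 and 3 in replicates 1 to 4 of the labelled double mutants. Every one of these 4 libraries was at or near the limit of 3 counts, and below every library of the other genotypes on the normalized scale.

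In normalized CPM, Hist1h1t was 0.165 ± 0.0420 (SD, n = 4) in G3 mTerc-/-Puma+/+ and 0.0220 ± 0.00394 (n = 3) in the labelled double mutants. Its log2 fold change between them was -2.83 (SE 0.469, edgeR adjusted p = 0.0468, Benjamini-Hochberg adjustment over all genes). Pooled counts per total were 7.32-fold lower, with an exact conditional 95% interval of 3.67 to 16.6 that covers counting error only. An exact two-sided permutation of the 3 against 4 libraries gave p = 0.0286, the smallest it can give. Hist1h1t was singled out by its call in these same libraries, so this p adds no separate support. The call was lost in 17 of the 22 alternative analyses that tested the gene, among them the replicate block (adjusted p = 0.0774), limma-voom (0.054) and 13 of the 14 fits that each left out 1 library, while the fold change stayed between -3.00 and -2.69. Against Puma-/- the log2 fold change was -2.20 (SE 0.478, edgeR adjusted p = 0.0823, exact permutation p = 0.0571) and against WT -1.87 (SE 0.511, edgeR adjusted p = 0.463). All G3 mTerc-/-Puma+/+ libraries lay above all WT libraries in Hist1h1t (log2 fold change 0.97, SE 0.403, edgeR adjusted p = 0.998). Its interaction value was -3.17 (SE 0.626, edgeR adjusted p = 0.191).

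**Figure D5:**
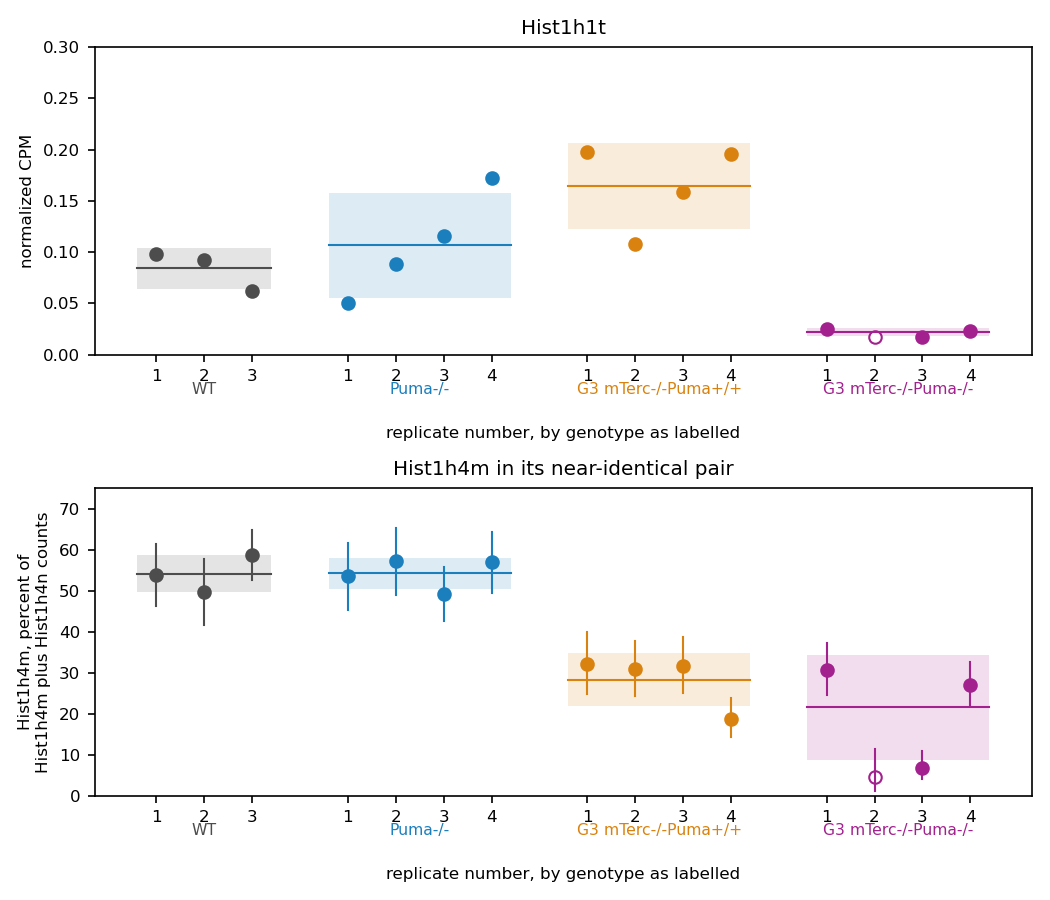
Upper panel, normalized CPM of Hist1h1t per library. Lower panel, the percent of the counts of Hist1h4m and Hist1h4n together that fell on Hist1h4m, with exact 95% binomial intervals as vertical lines. Lines and bands are genotype means ± SD over the tested libraries, and the open circle is labelled double mutant replicate 2, outside the tests. Hist1h1t is at most 0.0251 in the labelled double mutants, and the percent is 49.2 to 58.8 in WT and Puma-/- and 4.60 to 32.1 in all mTerc-/- libraries.

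A second pattern concerned an inverted pair of H4 genes with the same stem-loop, Hist1h4m on the plus strand (chromosome 13, 21811746 to 21812147) and Hist1h4n on the minus strand (21831767 to 21832196). Of the 50-base words of Hist1h4m, 89.8% are shared with Hist1h4n. Hist1h4m had 98, 78 and 151 counts in WT and 83, 87, 118 and 102 in Puma-/-. In G3 mTerc-/-Puma+/+ it had 51, 60, 61 and 54, and in the labelled double mutants 66, 4, 17 and 79. Hist1h4n had 84, 79 and 106 counts in WT, 72, 65, 122 and 77 in Puma-/-, 108, 135, 132 and 234 in G3 mTerc-/-Puma+/+, and 149, 83, 230 and 213 in the labelled double mutants.

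Neither gene passed the adjusted threshold. Hist1h4m had log2 fold changes of -1.03 (SE 0.360, edgeR adjusted p = 0.998) in G3 mTerc-/-Puma+/+ against WT and -1.35 (SE 0.394, edgeR adjusted p = 0.511) in the labelled double mutants against WT. For Hist1h4n in the latter comparison it was 0.89 (SE 0.374, edgeR adjusted p = 0.842), the opposite direction. Against Puma-/-, Hist1h4m gave -0.81 and -1.12 and Hist1h4n 0.86 and 1.05, with adjusted p of 0.204 to 0.375 (edgeR). In normalized CPM the pair together had means of 1.84 ± 0.408 (SD, n = 3) for WT, 1.60 ± 0.387 (n = 4) for Puma-/-, 1.84 ± 0.638 (n = 4) for G3 mTerc-/-Puma+/+ and 1.93 ± 0.509 (n = 3) for the labelled double mutants, which differ by less than their spread.

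The division of the pair did not overlap between mTerc-/- and other libraries. Hist1h4m held 53.9%, 49.7% and 58.8% of the pair's counts in WT and 53.6%, 57.2%, 49.2% and 57.0% in Puma-/-. It held 32.1%, 30.8%, 31.6% and 18.8% in G3 mTerc-/-Puma+/+, and 30.7%, 4.60%, 6.88% and 27.1% in replicates 1 to 4 of the labelled double mutants. All 8 mTerc-/- libraries thus lay below all 7 others, on 87 to 292 counts per library. The exact 95% binomial interval was 4.06% to 10.8% in replicate 3 of the latter, and such intervals cover counting error only. This share was examined after the fold changes had been seen and is given with no test. Of 21 pairs of members with more than 50% of words in common, 12 had at least 20 counts in every library, and this was the only one of the 12 without overlap between the mTerc-/- and the other libraries. Because the copies differ at few positions, a read can be assigned to 1 of them only where it covers such a position, so the level of each copy is uncertain. A change in the expression of the copies and a difference in their sequence that moves reads from 1 to the other cannot be told apart in these counts.

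The factors that make and remove histone mRNA were examined as lists chosen by function. Of 17 genes for the transcription and 3′ end processing of histone mRNA, all tested, 0 were called in any of the 7 comparisons. Slbp, whose protein binds the stem-loop, had mean normalized CPM of 124.7 ± 14.7 (SD, n = 3) for WT, 107.6 ± 11.4 (n = 4) for Puma-/-, 126.3 ± 7.61 (n = 4) for G3 mTerc-/-Puma+/+ and 119.4 ± 2.77 (n = 3) for the labelled double mutants. Its log2 fold change was -0.21 (SE 0.0926, edgeR adjusted p = 0.464) in Puma-/- against WT and 0.23 (SE 0.0860, edgeR adjusted p = 0.201) in G3 mTerc-/-Puma+/+ against Puma-/-. The 9 genes of histone mRNA decay, the 11 replacement histones and the 20 histone chaperones likewise had 0 calls in all 7 comparisons. Over all genes tested, 0.0369% to 0.801% were called in a comparison, so 0 calls in lists of this size say little.

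S phase genes, which are active when the clustered histone genes are, leaned the same way as the members in the comparisons that hold Puma-/-. In Puma-/- against WT 0 of 30 lay above 0, beside 50.9% of all genes, with a median log2 fold change of -0.16. Of the 30, 8 had an unadjusted p under 0.05, beside 10.1% of all genes, and 0 were called, beside 0.079%. In G3 mTerc-/-Puma+/+ against Puma-/-, 29 of 30 lay above 0, beside 49.9% of all genes, with a median of 0.17. Of the 30, 2 were called, beside 0.801% of all genes. These were the cyclin E genes, Ccne1 (log2 fold change 0.48, SE 0.0939, edgeR adjusted p = 0.0429) and Ccne2 (0.47, SE 0.0820, edgeR adjusted p = 0.0287), whose products promote entry into S phase. The groups of this comparison also differ in Xist without overlap, as do Puma-/- and WT. Label and Xist level therefore cannot be told apart in either, for any call or lean. In the labelled double mutants against Puma-/-, 30 of 30 lay above 0, beside 52% of all genes, with a median of 0.14. Of the 30, 0 were called, beside 0.306%. The markers of megakaryocytes moved with the same contrasts. Against Puma-/-, 5 of 8 were called lower in G3 mTerc-/-Puma+/+ and 6 of 8 in the labelled double mutants, beside the same 0.801% and 0.306% of all genes. The platelet chemokine gene Pf4, for example, had log2 fold changes of -1.63 and -2.22 (SE 0.271 and 0.308, edgeR adjusted p = 0.0213 and 0.00594). Of the pre-B markers, Igll1 of the pre-B receptor (log2 fold change 2.95, SE 0.454, edgeR adjusted p = 0.0393) and the adaptor gene Blnk (1.79, SE 0.233, edgeR adjusted p = 0.0128) were called higher in the labelled double mutants against G3 mTerc-/-Puma+/+, the comparison in which Hist1h1t was called. The part of these cell types in the levels of the histone genes was not tested.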

How the data were processed

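The deposited values are raw counts of reads per gene, which the authors made from poly(A)-selected stranded libraries with Trimmomatic 0.38 and STAR 2.5.2b on mm10 (versions from the submitters' processing notes). The annotation release and strand setting are not given in the sources used here. Symbols, coordinates and transcripts came from GENCODE vM21, promoters and older symbols from RefSeq. The members and lists were chosen with earlier results of these data known. Counts of 14 libraries were filtered with filterByExpr (18983 genes kept), normalized by TMM and fitted together with edgeR 4.0.16 in R 4.3.3 (quasi-likelihood test, Benjamini-Hochberg over all genes, threshold 0.05). Normalized CPM of the left-out library used factors of all 15. A prior count of 2 set the log2 scale of the permutations, the Xist covariate and the correlations between libraries. The deviations from genotype means used a small constant added to the CPM instead. The code was tested on simulated counts. Tried besides were all 15 libraries, no TMM, other filters, DESeq2 1.42.0, limma-voom (limma 3.58.1), fits of the compared groups, a replicate block, an Xist covariate and each library left out. No library repeats another (chi-square per gene 39.3 to 771 between replicates). Members named are those called, the 2 highest by mean CPM in each class, the 3 with the smallest p per comparison, and testis or polyadenylated members set by name. Of the lists, Slbp, called genes and checks of genotype and cell type are named, and 1 called marker is not reported here.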

Additional observations from a re-analysis of the deposited data

Results flagged for a closer look

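In 6 of 81 checks of a group of 4 libraries, 1 library lay far from the other 3. Chance alone gives about 1 in 20 for independent continuous values. These checks share libraries and members, and a single count, as for Hist1h2ba, is flagged by construction. The 6 of 81 therefore cannot be set against that rate. In 4 of the 6 the library apart was the labelled double mutant replicate 2, which was left out of the tests. The summed level of the clustered histone genes was 92.5 normalized CPM there against 154.0 to 159.8 in the other 3. Its sum over class H2A was 3.13 CPM against 5.77 to 6.09, and its sum over class H2B was 25.0 CPM against 42.4 to 44.5. Hist1h3b was 0.103 CPM there against 0.265 to 0.299. Hist1h2ao, an H2A gene, was 0.142 CPM in Puma-/- replicate 2 against 0.0753 to 0.0816 in the other Puma-/- libraries, and Hist1h2ba, the testis H2B, was 0.00906 CPM, a single count, in Puma-/- replicate 4 against 0 in the others.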

How the results depend on the processing

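The count of members called stayed at 0 in 5 of the 7 comparisons under every alternative that could be fitted. For the labelled double mutants against Puma-/- it was 1 with all 15 libraries and 0 or 1 without 1 library (1 without Puma-/- replicate 1). Against G3 mTerc-/-Puma+/+ the count of 1 became 0 with library size alone, limma-voom, at least 1 CPM in 3 libraries (where Hist1h1t was not tested), only the groups compared and the replicate block, and was 0 or 1 without 1 library. The single fit of those 14 that kept it left out Puma-/- replicate 1. The gene was Hist1h1t each time. Its adjusted p ran from 0.00423 (DESeq2) to 0.248 (only the groups compared) over 22 alternatives. The 21 single fold changes followed through the alternatives were those with the smallest p in each comparison. None of their 462 alternative values changed direction, which that choice from these same data favours. Medians over the members did change sign in some comparisons, as given above. Same-numbered libraries of different genotypes had correlations of their deviations from -0.253 to 0.175 (median 0.0203), so the replicate numbers were not taken as pairs. With the replicate block, calls over all genes fell from 152 to 43 in G3 mTerc-/-Puma+/+ against Puma-/- and from 58 to 21 in the labelled double mutants against Puma-/-, and DESeq2 called 996 and 287. With the Xist covariate the first was 18. The cause of these differences was not tested. A stem-loop with 1 mismatched pair allowed was found in the same number of members, 42. With mitochondrial genes out of the total, the members took a mean of 0.0170% of counts in place of 0.0159% in the 3 tested labelled double mutants. Levels under about 0.03 CPM rest on few counts per library at this depth, which limits Hist1h1t.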
